A study of Mus musculus with 4 samples.

Results

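The aminoacyl-tRNA synthetase genes were examined in RNA-seq of mouse spleen B cells with and without the histone methyltransferase NSD1. They were taken by symbol, as every gene named with 1 capital letter followed by ars, ars1 or ars2, together with *Eprs*, *Farsa*, *Farsb* and *Tarsl2*. This gave 38 of 55401 genes, of which 21 encode cytosolic enzymes and 17 encode mitochondrial enzymes, whose symbols end in 2. *Tarsl2* was counted with the cytosolic enzymes although its symbol ends in 2. The splenic B220+ B cells were sorted from NSD1B WT mice (Mb1-Cre+ NSD1+/+) and NSD1B KO mice (Mb1-Cre+ NSD1 fl/fl), with 2 libraries of each. Both genotypes carried Mb1-Cre, which is driven by the *Cd79a* promoter in the B lineage, and the floxed allele loses exons 6 to 8. All mice were on the C57BL/6J background, and the study describes mice of both sexes, 7 to 9 weeks old, with littermates as controls. Whether the libraries came from separate mice is not stated in the sources, so p-values measure only the spread between these libraries, which may be technical.

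The libraries held 6769118 to 7566834 counts on genes, and 12383 to 13084 genes were counted in each. The counts of *Nsd1* were 497 and 480 in NSD1B WT and 284 and 280 in NSD1B KO, a log2 fold change of -0.74 ± 0.11 (SE). The counts are per gene and do not measure the deleted exons alone. All 8 B cell markers listed were counted in every library, with 6 of 8 lower. Their summed level was 12921 and 12693 CPM (counts scaled to the library total) in NSD1B WT and 12199 and 11188 in NSD1B KO. The largest part of this sum was *Cd79b*, which did not fall, with means of 6816 CPM in NSD1B WT and 8150 CPM in NSD1B KO. The 6 lower markers had log2 fold changes from -0.31 (*Blk*) to -3.29 (*Pax5*), with *Cd79a* at -1.33. The sum thus understates the fall of these 6 markers. Markers of other cells moved with genotype. The 6 erythroid markers summed to 39.6 and 35.5 CPM in NSD1B WT and 1943 and 1688 CPM in NSD1B KO, with 5 of 6 higher. The 8 markers of dividing cells summed to 89.3 and 101 CPM in NSD1B WT and 48.5 and 35.3 CPM in NSD1B KO, where 6 of 8 were at 0 (*Mcm2*, *Mcm5*, *Cdk1*, *Top2a*, *Mki67* and *Ccnb1*, of which *Mcm2* was also at 0 in NSD1B WT). The 6 myeloid markers summed to 4518 and 4624 CPM in NSD1B WT and 5988 and 5647 CPM in NSD1B KO, nearly all of it from *Lyz2*. Of these markers 4 were higher and 2 (*Itgam* and *S100a8*) were lower. The plasma cell list ranged from 259 to 315 CPM with *Sdc1* and *Tnfrsf17* at 0 in all libraries and the T cell list from 56.9 to 65.1 CPM with *Cd4* and *Cd8a* at 0, and each had 2 genes higher and 2 lower. The NK cell list, with *Ncr1* and *Gzma* at 0, summed to 56.5 and 59.8 CPM in NSD1B WT and 86.4 and 83.1 CPM in NSD1B KO. Most of this came from *Nkg7*, with means of 54.4 and 79.7 CPM. *Klrk1* was also higher, while *Klrb1c* was lower (26 and 21 against 0 and 0 counts). The plasmacytoid dendritic cell list, with *Siglech* at 0, summed to 140 and 141 CPM in NSD1B WT and 211 and 219 CPM in NSD1B KO. *Xist* had 47 and 62 counts in NSD1B WT against 1 and 2 in NSD1B KO. Of the Y-linked genes, *Kdm5d* (89 and 77 against 365 and 300 counts), *Uty* (121 and 113 against 181 and 164) and *Ddx3y* (624 and 641 against 914 and 875) were higher in NSD1B KO. *Eif2s3y*, also Y-linked, was lower (1014 and 988 against 169 and 184 counts). The part of these other cells, of division and of sex in the values below was not tested.

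Aminoacyl-tRNA synthetases join each amino acid to its tRNA with energy from ATP, and so supply the ribosome with its substrates. Cytosolic and mitochondrial protein synthesis mostly use separate enzymes, all encoded in the nucleus. The mitochondrial set serves the few proteins of the respiratory chain and ATP synthase that mitochondria make themselves. *Kars* and *Gars* each supply both compartments from 1 gene. The enzymes fall into class I and class II by the fold of the catalytic domain. In the cytosol several of them sit in the multi-synthetase complex, held together by the scaffold proteins *Aimp1*, *Aimp2* and *Eef1e1*. Many genes for cytosolic enzymes are known targets of the stress factor ATF4, and the nuclear respiratory factor NRF1 is known for activating nuclear genes of mitochondrial proteins.

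For this reason the letters TGATGNAA (ATF4 type) and GCATGCGC (NRF1 type) were searched on both strands in the RefSeq promoter windows of GRCm38.p6, each from 250 bases before to 50 bases after a gene's start. A window was matched for 28 of the 38 genes, 14 in each compartment. TGATGNAA was found in 5 of 14 cytosolic windows (*Aars*, *Gars*, *Iars*, *Tars* and *Yars*) and 0 of 14 mitochondrial windows, against 3.97% of all 32851 windows. GCATGCGC was found in 0 of 14 cytosolic and 3 of 14 mitochondrial windows (*Rars2*, *Vars2* and *Wars2*), against 2.71% of all windows. No gene held both. The matches of both types, apart from 1 of those in *Aars*, are shown 5′ to 3′ along the gene, with the matched letters in capitals. They were chosen for display with their split by compartment in view, so the split is a description and not a test.
Tars, chr15:11399655-11399684, minus strand: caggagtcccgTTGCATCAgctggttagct
Iars, chr13:49682126-49682155, plus strand: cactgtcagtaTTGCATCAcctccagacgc
Yars, chr4:129189895-129189924, plus strand: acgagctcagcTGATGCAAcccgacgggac
Gars, chr6:55037960-55037989, plus strand: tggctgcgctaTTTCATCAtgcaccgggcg
Aars, chr8:111033840-111033869, plus strand: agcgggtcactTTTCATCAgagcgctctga
Rars2, chr4:34614895-34614924, plus strand: cggccccgtgtGCATGCGCactccacactt
Wars2, chr3:99141015-99141044, plus strand: ccagaggacagGCGCATGCgtagtaagcac
Vars2, chr17:35667620-35667649, minus strand: gagtcttttacGCATGCGCctgcgtgtccc
Vars2, chr17:35667594-35667623, minus strand: tccccgcccacGCATGCGCgcgcacctcgc
Genes with the same letters differed in their change between genotypes. Of the genes with TGATGNAA, *Tars* was higher in NSD1B KO, *Iars* and *Yars* were lower, and *Aars* and *Gars* did not pass the test. Of those with GCATGCGC, *Vars2* was higher and *Rars2* and *Wars2* were lower. The letters CCGGAAG (ETS type) were found in 5 of 14 cytosolic and 4 of 14 mitochondrial windows, against 8.86% of all windows. ATGGCGGC (YY1 type) was found in 0 of 14 cytosolic and 3 of 14 mitochondrial windows (*Lars2*, *Tars2* and *Yars2*), against 2.24% of all windows. Its matches also lay in 1 compartment and are not shown. The median GC content was 57.8% in the 28 windows and 52.7% in all windows. A match of letters is not a measured binding site.

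In NSD1B KO B cells, 14 aminoacyl-tRNA synthetase genes were higher and 14 were lower than in NSD1B WT, among 34 with enough counts to test. A gene counted as called when its fold change was above 1.2 and its adjusted p below 0.05. Of all 11657 genes tested, 78.2% were called, 37.1% as higher and 41.1% as lower, so that the share of synthetase genes called, 82.4%, lay near that of all genes. The NSD1B KO and NSD1B WT libraries did not overlap in 33 of 34 synthetase genes, against 88.0% of all genes tested. The median log2 fold change was -0.23 over the synthetase genes and -0.10 over all genes tested. Among the synthetase genes 19 were called and differed by more than 2-fold, against 54.2% of all genes tested. The other 4 genes could not be tested, since *Aars2*, *Pars2* and *Sars2* had 0 counts in all 4 libraries and *Tarsl2* had 1 count in NSD1B KO replicate 2. In RNA from sorted cells, fewer cells of a type and less RNA per cell cannot be told apart.

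**Figure D1:**
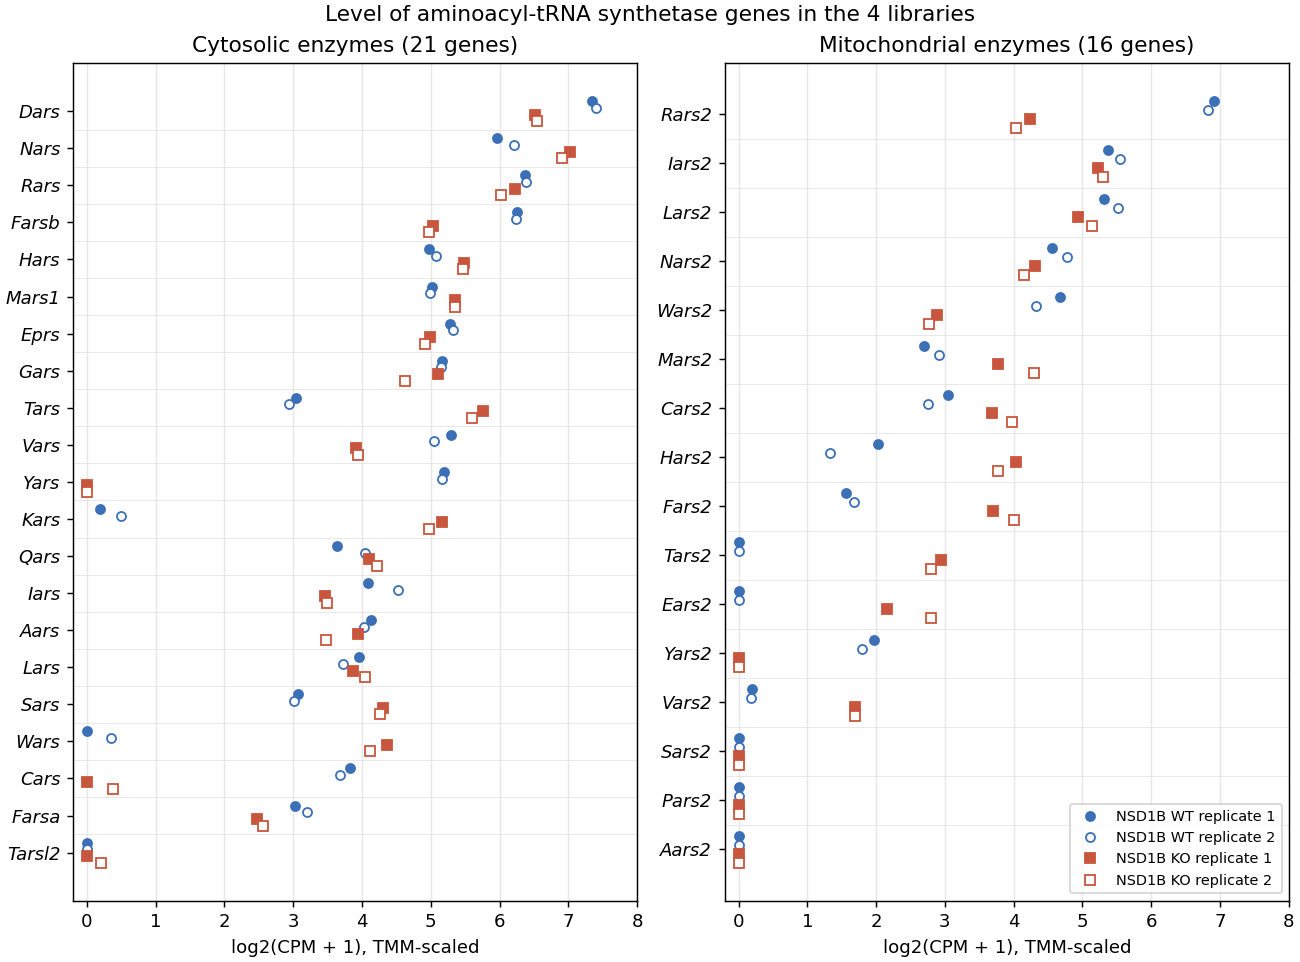
TMM-scaled level of aminoacyl-tRNA synthetase genes in the 4 libraries, as log2(CPM + 1) on the horizontal axis, for 21 cytosolic genes on the left and 16 of the mitochondrial genes on the right; circles are NSD1B WT, squares are NSD1B KO, and filled and open symbols are replicates 1 and 2. The libraries of a genotype lie close together, and *Yars* and *Yars2* sit at 0 in NSD1B KO while *Ears2* and *Tars2* sit at 0 in NSD1B WT.

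Per kilobase of exon, the most abundant synthetase mRNA in NSD1B WT was *Rars2* (41.9 CPM per kb), the mitochondrial arginine enzyme. It was followed by *Dars* (38.0), *Farsb* (28.6), *Rars* (25.4) and *Nars* (15.4 CPM per kb). In NSD1B KO the order was *Nars* (28.4), *Rars* (21.3), *Dars* (20.9), *Hars* (17.9) and *Farsb* (11.8 CPM per kb). *Rars2* was the 10th in NSD1B KO, at 6.02 CPM per kb. *Kars* moved from the 30th place to the 9th. The median over all 21 cytosolic genes was 2.49 CPM per kb in NSD1B WT and 3.58 in NSD1B KO, and over all 17 mitochondrial genes 0.535 and 1.02 CPM per kb.

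In all, 5 synthetase genes had counts in both libraries of 1 genotype and none in the other, as did 18.9% of all genes tested. Genes that living or dividing cells use, such as *Rptor* and *Cdk1*, are among these, and whether a 0 reflects the RNA or the making of the counts could not be tested from the counts, so a limit given against 0 describes the deposited counts. *Yars*, which encodes the cytosolic tyrosine enzyme, had 255 and 254 counts in NSD1B WT and 0 and 0 in NSD1B KO. Set against a limit of 3 counts over the genotype, it was at least 163-fold lower (edgeR quasi-likelihood test, Benjamini-Hochberg adjusted p = 3.60e-23). Its mitochondrial counterpart *Yars2* had 21 and 18 counts in NSD1B WT and 0 and 0 in NSD1B KO, at least 12.5-fold lower. Tyrosine was thus the amino acid for which neither enzyme had a count in NSD1B KO. In the other direction, *Tars2*, the mitochondrial threonine enzyme, had 0 and 0 counts in NSD1B WT and 48 and 40 in NSD1B KO, at least 30.5-fold higher. *Ears2*, which charges mitochondrial tRNAs with glutamate, had 0 and 0 counts in NSD1B WT and 25 and 40 in NSD1B KO, at least 22.5-fold higher. *Yars* lies on the plus strand of chromosome 4 (mm10, 129189760 to 129219607), where 30 bases of its exons overlap the opposite-strand gene *C77080*, which had no counts.

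A further 4 genes had between 2 and 4 counts in all in 1 genotype. *Kars*, the gene for the lysine enzyme of both compartments, had 1 and 3 counts in NSD1B WT and 250 and 204 in NSD1B KO. Its log2 fold change was 6.79 ± 0.36 (SE; edgeR quasi-likelihood test, adjusted p = 4.96e-22), and the ratio of its counts was 118 (95% counting interval 45.7 to 434). Without NSD1B WT replicate 2, which held 3 of its 4 counts there, the log2 fold change was 7.71, and without NSD1B WT replicate 1 it was 6.28. It lies on the minus strand of chromosome 8 (mm10, 111993443 to 112011323), and the pseudogene *Kars-ps1* had 0 counts in all libraries. *Wars*, the cytosolic tryptophan enzyme, had 0 and 2 counts in NSD1B WT and 141 and 110 in NSD1B KO, a ratio of 130 (35.7 to 1082). *Cars*, the cytosolic cysteine enzyme, had 94 and 87 counts in NSD1B WT and 0 and 2 in NSD1B KO, and was 87.1-fold lower (23.8 to 725). *Vars2*, the mitochondrial valine enzyme, had 1 and 1 counts in NSD1B WT and 16 and 15 in NSD1B KO, a ratio of 16.1 (4.10 to 139). Both counts of *Wars* in NSD1B WT and both counts of *Cars* in NSD1B KO lay in replicate 2. These intervals cover counting error only. Without the genes under 20 counts in a genotype, 25 synthetase genes remained, 9 higher and 10 lower, and their median absolute log2 fold change was 0.86, against 0.71 over the 8326 genes tested at that level, of which 70.8% were called.

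The 8 enzymes of the multi-synthetase complex were spread over both directions, with 2 higher (*Kars* and *Mars1*), 3 lower (*Dars*, *Iars* and *Eprs*) and 3 not called. This is 62.5% called against 78.2% of all genes tested, and the median log2 fold change was -0.07. *Dars*, which charges aspartate, had the highest counts of the synthetase genes in NSD1B WT. It had 1160 and 1237 counts in NSD1B WT and 653 and 619 in NSD1B KO (166 ± 4.84 and 91.3 ± 0.872 CPM, SD, n = 2), a log2 fold change of -0.86 ± 0.09 (SE; edgeR quasi-likelihood test, adjusted p = 3.80e-12). *Iars*, the isoleucine enzyme, had 114 and 161 counts in NSD1B WT and 72 and 69 in NSD1B KO, a log2 fold change of -0.91 ± 0.21 (adjusted p = 0.000152). *Eprs* encodes a double enzyme that charges both glutamate and proline. Its counts were 272 and 286 in NSD1B WT and 222 and 196 in NSD1B KO, a log2 fold change of -0.36 ± 0.14 (adjusted p = 0.0142). This call was lost without NSD1B WT replicate 1 (adjusted p = 0.0507), NSD1B WT replicate 2 (0.0781) or NSD1B KO replicate 2 (0.0553) and by the DESeq2 Wald test (0.0891), with a range over all alternatives of 9.96e-05 to 0.0891. *Mars1*, the methionine enzyme, had 224 and 226 counts in NSD1B WT and 287 and 268 in NSD1B KO, a log2 fold change of 0.36 ± 0.13 (adjusted p = 0.0143), and was not called by the DESeq2 Wald test (adjusted p = 0.0757, range over the alternatives 2.91e-06 to 0.0757). *Lars*, for leucine, was the synthetase gene whose libraries overlapped, with 104 and 89 against 98 and 104 counts and a log2 fold change of 0.12 ± 0.21. *Qars*, for glutamine, had 82 and 113 against 117 and 119 counts (log2 fold change 0.33 ± 0.20, adjusted p = 0.131). It passed without NSD1B WT replicate 2 (adjusted p = 0.0379, range 0.0245 to 0.554). *Rars*, for arginine, had 582 and 605 against 532 and 430 counts and a log2 fold change of -0.25 ± 0.10. Its adjusted p was 0.0227, but its fold of 1.19 fell short of the threshold, and it passed without NSD1B KO replicate 1 (adjusted p = 0.00269, range 0.00122 to 0.225). The scaffold genes also differed from each other. *Aimp1* was higher (379 and 411 against 551 and 480 counts, log2 fold change 0.44 ± 0.11), *Aimp2* was lower (669 and 613 against 449 and 351 counts, -0.63 ± 0.11), and *Eef1e1* was not called (877 and 873 against 791 and 672 counts, -0.21 ± 0.09).

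Of the 12 tested cytosolic enzymes outside the complex, 5 were higher, 5 were lower and 2 were not called. This is 83.3% called, near the 78.2% of all genes tested, and the median log2 fold change was -0.33. Besides *Wars*, the higher genes were *Tars*, *Sars*, *Nars* and *Hars*. *Tars*, the threonine enzyme, had 52 and 49 counts in NSD1B WT and 382 and 321 in NSD1B KO, a log2 fold change of 2.85 ± 0.17 (SE; edgeR quasi-likelihood test, adjusted p = 5.18e-20). *Sars*, which charges serine and also the selenocysteine tRNA, had 53 and 52 against 135 and 122 counts, a log2 fold change of 1.34 ± 0.22 (adjusted p = 5.22e-07). *Nars*, the asparagine enzyme, had 437 and 532 against 928 and 800 counts, a log2 fold change of 0.89 ± 0.10 (adjusted p = 2.82e-11). With this it took the highest counts of the synthetase genes in NSD1B KO. *Hars*, the histidine enzyme, had 218 and 239 against 316 and 293 counts, a log2 fold change of 0.47 ± 0.13 (adjusted p = 0.00121). Besides *Yars* and *Cars*, the lower genes were *Vars*, *Farsb* and *Farsa*. *Vars*, the valine enzyme, had 273 and 235 against 101 and 97 counts, a log2 fold change of -1.30 ± 0.17 (adjusted p = 9.81e-10), which was -0.70 with a trend with length and GC content removed. *Farsb* and *Farsa* encode the β and α subunits of the cytosolic phenylalanine enzyme, and both were lower. *Farsb* had 538 and 546 against 228 and 204 counts, a log2 fold change of -1.27 ± 0.12 (adjusted p = 5.97e-14). *Farsa* had 51 and 60 against 33 and 33 counts, a log2 fold change of -0.69 ± 0.30 (adjusted p = 0.0341). The call of *Farsa* was lost when any 1 library was left out (adjusted p = 0.101 and 0.25 without NSD1B WT replicates 1 and 2, 0.0941 and 0.0543 without NSD1B KO replicates 1 and 2), and its range over the alternatives was 0.0196 to 0.25. *Gars*, for glycine, had 250 and 252 against 241 and 160 counts (log2 fold change -0.27 ± 0.15), and *Aars*, for alanine, had 118 and 112 against 103 and 68 counts (-0.38 ± 0.21). In both genes NSD1B KO replicate 1 lay near NSD1B WT and replicate 2 lay lower, and both were called without NSD1B KO replicate 1 (adjusted p = 0.00206 for *Gars*, range 0.00206 to 0.79, and 0.0128 for *Aars*, range 0.0128 to 0.933).

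The mitochondrial enzymes moved in both directions. Of 14 tested, 7 were higher, 6 were lower and 1 was not called, which is 92.9% called against 78.2% of all genes tested. Of these 14, 11 were called and differed by more than 2-fold, against 8 of 20 cytosolic genes and 54.2% of all genes tested. The median log2 fold change was 0.41 over the mitochondrial and -0.26 over the cytosolic genes, and the former became -0.25 when 1 CPM was required in all 4 libraries. The latter became -0.0958 without NSD1B KO replicate 2 and -0.0737 with a trend with length and GC content removed. The median absolute log2 fold change was 2.65 over the mitochondrial and 0.87 over the cytosolic genes, and 1.16 over all genes tested, with genes at 0 taken at their limit. The difference between the compartments was not tested. The mitochondrial genes also had lower levels, with a median over all genes of the compartment of 2.70 CPM in NSD1B WT against 19.0 CPM for the cytosolic genes, and the part of level in the size of the changes was not tested. *Rars2*, on the plus strand of chromosome 4 (mm10, 34614957 to 34660167), had 855 and 826 counts in NSD1B WT and 129 and 104 in NSD1B KO (116 ± 4.71 and 16.7 ± 1.75 CPM, SD, n = 2). Its log2 fold change was -2.80 ± 0.12 (SE; edgeR quasi-likelihood test, adjusted p = 1.61e-25). *Wars2*, the tryptophan enzyme, had 175 and 139 against 46 and 39 counts, a log2 fold change of -1.83 ± 0.23 (adjusted p = 5.80e-10). *Nars2*, the asparagine enzyme, had 161 and 193 against 136 and 113 counts, a log2 fold change of -0.45 ± 0.17 (adjusted p = 0.0150). Its call was lost without NSD1B WT replicate 2 (adjusted p = 0.196) or NSD1B KO replicate 2 (0.0705) and by the DESeq2 Wald test (0.0937), with a range of 0.00264 to 0.196. *Lars2*, the leucine enzyme, had 278 and 329 against 214 and 230 counts, a log2 fold change of -0.39 ± 0.14 (adjusted p = 0.00743). Its call was lost without NSD1B WT replicate 2 (log2 fold change -0.26) or NSD1B KO replicate 1 (-0.30) and by the DESeq2 Wald test (adjusted p = 0.0630). It was also lost in the edgeR test with a trend with length and GC content removed (log2 fold change -0.25, adjusted p = 0.0731). *Iars2*, for isoleucine, was not called (288 and 336 against 261 and 258 counts, log2 fold change -0.21 ± 0.13).

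The higher mitochondrial genes, beside *Tars2*, *Ears2* and *Vars2*, were *Fars2*, *Hars2*, *Mars2* and *Cars2*. *Fars2*, a phenylalanine enzyme that works as a single chain, had 14 and 16 counts in NSD1B WT and 86 and 101 in NSD1B KO, a log2 fold change of 2.69 ± 0.32 (SE; edgeR quasi-likelihood test, adjusted p = 1.54e-10). *Hars2*, for histidine, had 22 and 11 against 111 and 85 counts, a log2 fold change of 2.61 ± 0.32 (adjusted p = 3.13e-10). *Mars2*, for methionine, had 39 and 48 against 91 and 126 counts, a log2 fold change of 1.38 ± 0.25 (adjusted p = 3.27e-06). *Cars2*, for cysteine, had 52 and 42 against 85 and 99 counts, a log2 fold change of 1.02 ± 0.25 (adjusted p = 0.000310). In each of these 4 genes both NSD1B KO libraries lay above both NSD1B WT libraries, and the genotypes did not overlap in 88.0% of all genes tested. Without NSD1B WT replicate 1 the log2 fold change of *Hars2* was 3.24. Both classes of enzyme held genes of either direction, with 6 of 18 tested class I genes higher and 8 lower, and 8 of 15 tested class II genes higher and 5 lower. Of all genes tested, 37.1% were higher and 41.1% lower, against 33.3% and 44.4% in class I and 53.3% and 33.3% in class II.

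Set side by side by amino acid, 18 pairs of a cytosolic and a mitochondrial gene could be formed, with *Farsa* and *Farsb* each paired to *Fars2*, and *Eprs* to both *Ears2* and *Pars2*. Both genes were called in 12 pairs. In 3 pairs both were higher (histidine, methionine and threonine), in 2 both were lower, tyrosine among them, and in 7 they moved in opposite directions (cysteine, glutamate, phenylalanine with either subunit, asparagine, valine and tryptophan). Of all genes tested, 37.1% were called higher and 41.1% lower, so opposite calls are also frequent between unrelated genes. The phenylalanine pairs share *Fars2*, and the pair counts were not tested. For tryptophan, the counts of *Wars* were 0 and 0.0144 times those of *Wars2* in NSD1B WT and 3.07 and 2.82 times in NSD1B KO. For arginine, the counts of *Rars* were 0.681 and 0.732 times those of *Rars2* in NSD1B WT and 4.12 and 4.13 times in NSD1B KO. For valine, the counts of *Vars* were 273 and 235 times those of *Vars2* in NSD1B WT, where *Vars2* had 1 count in each library, and 6.31 and 6.47 times in NSD1B KO. For cysteine, the counts of *Cars* were 1.81 and 2.07 times those of *Cars2* in NSD1B WT and 0 and 0.0202 times in NSD1B KO. For phenylalanine, the counts of *Farsa* were 3.64 and 3.75 times those of *Fars2* in NSD1B WT and 0.384 and 0.327 times in NSD1B KO. In tryptophan, arginine, cysteine and phenylalanine (*Farsa*) the order of the paired genes was thus turned in both NSD1B KO libraries. The 7 opposite pairs became 4 without NSD1B WT replicate 2, 4 without NSD1B KO replicate 2 and 4 by the DESeq2 Wald test, where the calls of *Eprs*, *Farsa* and *Nars2* were lost, and 3 with 1 CPM required in all 4 libraries. These ratios are of counts, not scaled by length, and serve to compare libraries.

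**Figure D2:**
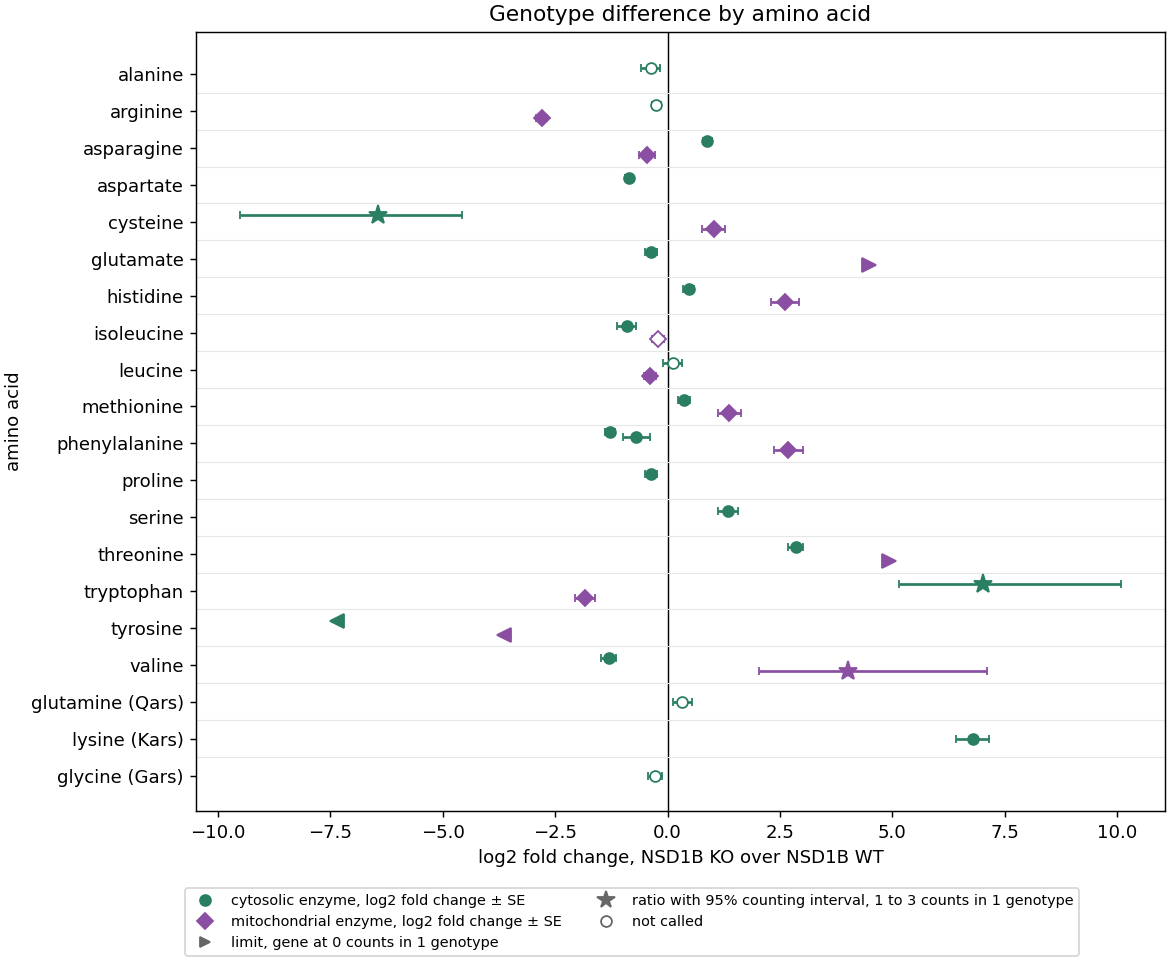
Log2 fold change, NSD1B KO over NSD1B WT, of the cytosolic (green circles) and mitochondrial (purple diamonds) enzyme for each amino acid, with the SE as bars; triangles are limits for genes at 0 counts in 1 genotype, stars are count ratios with a 95% counting interval for genes with 1 to 3 counts in 1 genotype, open symbols were not called, and genes without a test or not reported have no symbol. Cysteine, glutamate, phenylalanine, asparagine, valine and tryptophan have their called symbols on opposite sides of 0, of which the symbols of *Eprs*, *Farsa* and *Nars2* rest on calls that were lost when 1 library was left out, while histidine, methionine and threonine lie on the right and tyrosine on the left.

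The summed level of all synthetase genes was 956 and 982 CPM in NSD1B WT and 845 and 812 CPM in NSD1B KO, and they held 0.0984% and 0.101% of the counts in NSD1B WT and 0.0804% and 0.0808% in NSD1B KO. The cytosolic genes summed to 682 and 702 CPM in NSD1B WT and 672 and 627 CPM in NSD1B KO. The mitochondrial genes summed to 274 and 280 CPM in NSD1B WT and 173 and 186 CPM in NSD1B KO. All 3 sums were lower in both NSD1B KO libraries, and by a larger share in the mitochondrial genes. The lower total rested on *Dars* and *Rars2*, without which the genes summed to 674 and 700 CPM in NSD1B WT and 737 and 705 CPM in NSD1B KO. The cytosolic sum was 2.50 ± 0.0149 times the mitochondrial sum in NSD1B WT and 3.63 ± 0.355 times in NSD1B KO (SD, n = 2), which is larger than the spread between the libraries. This difference rested on *Rars2*. Without it the mitochondrial genes summed to 161 ± 8.83 CPM in NSD1B WT and 163 ± 10.4 CPM in NSD1B KO, and their libraries overlapped. The log2 change of the ratio was 0.54 from the sums and -0.15 from the mean of log2(CPM + 1), which gives every gene the same weight. Within the cytosol, the 8 enzymes of the complex summed to 355 and 372 CPM in NSD1B WT and 310 and 298 CPM in NSD1B KO, and those outside it to 327 and 331 CPM in NSD1B WT and 362 and 328 CPM in NSD1B KO. The sums of the complex did not overlap between genotypes, and those outside it did. The lower sum of the complex rested on *Dars*, with 162 and 169 CPM in NSD1B WT and 90.7 and 91.9 CPM in NSD1B KO, a larger fall than that of the sum. The sums are given as a description, with no test.

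**Figure D3:**
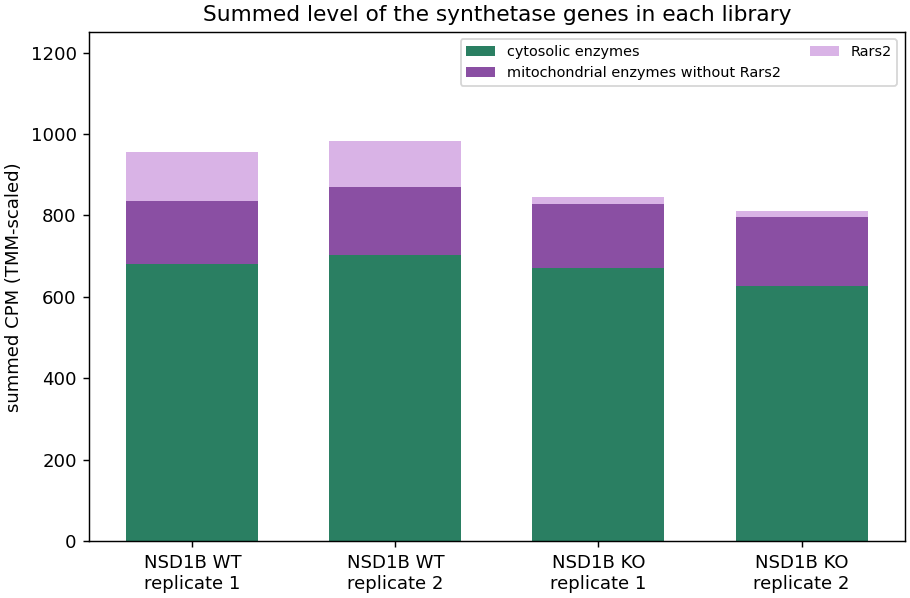
Summed TMM-scaled CPM of the aminoacyl-tRNA synthetase genes in each of the 4 libraries, as stacked bars from 0 for the cytosolic enzymes (green), the mitochondrial enzymes without *Rars2* (dark purple) and *Rars2* (light purple). The *Rars2* segment is shorter in both NSD1B KO libraries, while the dark purple segments of the genotypes are of like height, at 161 ± 8.83 CPM in NSD1B WT and 163 ± 10.4 CPM in NSD1B KO.

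Several synthetase genes share exon sequence with a neighbour, and the strand setting of the counting is not given in the sources used here, so reads of the shared stretch cannot be assigned with certainty. *Hars* and *Hars2* lie head to head on opposite strands and share 195 bases of exon, and both were higher. For *Iars2*, 22.9% of the exon bases overlap *Rab3gap2*, which was lower (133 and 181 against 94 and 91 counts). For *Farsb*, 9.47% overlap *Sgpp2*, which moved the other way (24 and 25 against 109 and 95 counts). *Cars2* shares 5.83% of its exon bases with *Naxd*, which was lower (309 and 379 against 100 and 105 counts) while *Cars2* was higher. *Nars2* shares 4.08% with *C230038L03Rik*, which had 27 and 19 counts in NSD1B WT and 0 and 0 in NSD1B KO. *Mars1* shares 68 bases with *Ddit3*, and *Ddit3* was not called. *Aars* shares 14.3% with *Exosc6*, *Fars2* 8.72% with *Nrn1* and *Vars2* 8.52% with *Gm20483*, and these neighbours had no counts in any library. *Fars2* also shares 115 bases with *Lyrm4*, which was lower (719 and 771 against 256 and 268 counts) while *Fars2* was higher.

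The genes that work with the enzymes were examined as lists. Of the 12 tested synthetase partners and tRNA charging helpers, 7 were higher, 3 were lower and 2 were not called, which is 83.3% called against 78.2% of all genes tested, with a median log2 fold change of 0.39. *Yrdc*, which makes the precursor of a modified adenosine in tRNAs that read codons starting with A, had 13 and 7 counts in NSD1B WT and 147 and 148 in NSD1B KO, a log2 fold change of 3.92 ± 0.31 (SE). *Dtd2* and *Dtd1*, which clear wrongly charged amino acids from tRNA, were both higher, *Dtd2* with 80 and 73 against 298 and 255 counts (1.90 ± 0.17) and *Dtd1* with 296 and 329 against 618 and 563 counts (0.97 ± 0.11). *Ankrd16*, which helps the alanine enzyme to avoid charging serine, had 67 and 69 against 171 and 126 counts (1.18 ± 0.21). *Sepsecs*, which makes selenocysteine on its tRNA after *Sars* has charged it with serine, had 0 and 0 against 30 and 31 counts and was at least 21.1-fold higher. *Eef1a1*, the elongation factor that carries charged tRNA to the ribosome, was lower, with 20726 and 21591 against 15604 and 12992 counts (-0.51 ± 0.08).

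The 23 tested partners of mitochondrial tRNA charging and translation comprised 10 higher, 8 lower and 5 not called, which is 78.3% called against 78.2% of all genes tested, and their median log2 fold change was 0.20. The mitochondrial glutamine tRNA is first charged with glutamate by *Ears2* and then converted by an amidotransferase of *Qrsl1*, *Gatb* and *Gatc*. While *Ears2* was higher in NSD1B KO, all 3 amidotransferase genes were lower. *Gatb* had 32 and 30 against 0 and 0 counts, at least 19.9-fold lower, *Gatc* had 459 and 445 against 150 and 142 counts (log2 fold change -1.58 ± 0.13), and *Qrsl1* had 492 and 504 against 385 and 325 counts (-0.44 ± 0.11). *Mtfmt*, which formylates the methionine that *Mars2* charges, was higher together with *Mars2*, with 13 and 20 against 346 and 333 counts (log2 fold change 4.41 ± 0.22). *Mto1* and *Gtpbp3* act together on the wobble uridine of mitochondrial tRNAs, and moved in opposite directions. *Mto1* had 385 and 379 against 0 and 0 counts, at least 245-fold lower, and *Gtpbp3* had 0 and 0 against 27 and 27 counts, at least 18.7-fold higher. *Trmu*, which adds sulfur to the same base, had 0 and 0 against 161 and 146 counts, at least 106-fold higher. Of the mitochondrial elongation factors, *Tufm*, which delivers charged tRNA, had 227 and 245 against 30 and 13 counts (log2 fold change -3.40 ± 0.24). *Tsfm*, which recycles *Tufm*, had 356 and 350 against 1 and 0 counts, a ratio of 0.00147 (95% counting interval 3.72e-05 to 0.00822). The release factor gene *Mtrf1* had 0 and 0 against 333 and 271 counts, at least 209-fold higher.

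In the amino acid and ATF4 response, 5 of 18 tested genes were higher, 8 were lower and 5 were not called, which is 72.2% called against 78.2% of all genes tested, and the median log2 fold change was -0.25. *Atf4* itself had 249 and 273 against 258 and 279 counts, a log2 fold change of 0.10 ± 0.13 (edgeR quasi-likelihood test, adjusted p = 0.504). Its targets *Ddit3* (218 and 208 against 235 and 234 counts) and *Asns* (21 and 34 against 21 and 13 counts) were not called. *Eif4ebp1*, of the same list, was higher, with 460 and 457 against 1048 and 915 counts (log2 fold change 1.15 ± 0.09). *Eif2ak4*, the kinase that senses uncharged tRNA, was lower, with 208 and 177 against 125 and 93 counts (log2 fold change -0.77 ± 0.18). The kinase of the endoplasmic reticulum, *Eif2ak3*, was higher, with 164 and 188 against 609 and 535 counts (1.75 ± 0.12), and the RNA-sensing kinase *Eif2ak2* was lower, with 96 and 102 against 32 and 35 counts (-1.50 ± 0.26). *Ppp1r15a*, which ends the response by directing dephosphorylation of eIF2α, had 155 and 174 against 0 and 0 counts, at least 106-fold lower. Of the genes of serine synthesis, *Psat1* had 78 and 76 against 0 and 0 counts, at least 49.4-fold lower, while *Phgdh* was higher, with 282 and 265 against 374 and 300 counts (log2 fold change 0.35 ± 0.13). *Psph*, of the same pathway, was lower, with 368 and 295 against 279 and 220 counts (-0.36 ± 0.13). Of the mitochondrial enzymes of one-carbon metabolism, *Shmt2*, which takes serine apart, was lower, with 77 and 95 against 26 and 35 counts (-1.43 ± 0.28), and *Mthfd2* was higher, with 149 and 132 against 262 and 233 counts (0.87 ± 0.15).

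All 8 tested amino acid transporters were called, 3 higher and 5 lower, beside 78.2% of all genes tested, with a median log2 fold change of -0.46. *Slc7a5* and *Slc3a2*, the light and heavy chain of a transporter for leucine and other large amino acids, moved in opposite directions. *Slc7a5* had 74 and 68 against 0 and 0 counts, at least 45.6-fold lower, and *Slc3a2* had 225 and 230 against 392 and 297 counts (log2 fold change 0.65 ± 0.13). *Slc7a7*, a light chain that also pairs with *Slc3a2*, was lower, with 149 and 170 against 16 and 16 counts (-3.25 ± 0.27). The neutral amino acid transporters *Slc38a1* (442 and 401 against 1100 and 1066 counts, 1.42 ± 0.10) and *Slc38a2* (1153 and 1148 against 2061 and 1764 counts, 0.79 ± 0.08) were higher. *Slc1a5*, which carries glutamine, was lower (516 and 523 against 223 and 164 counts, -1.37 ± 0.12). In TOR signalling, the pathway that reads amino acid supply, 4 of 9 tested genes were higher and 4 lower, beside 37.1% and 41.1% of all genes tested, with a median log2 fold change of -0.03. *Flcn*, which acts in amino acid sensing at the lysosome, was higher (29 and 24 against 219 and 224 counts, 3.11 ± 0.22). The paired inhibitors *Tsc1* (170 and 139 against 32 and 34 counts, -2.17 ± 0.24) and *Tsc2* (61 and 61 against 131 and 111 counts, 1.04 ± 0.22) moved in opposite directions. *Mtor*, the kinase, was lower (162 and 161 against 105 and 80 counts, -0.75 ± 0.19), *Rptor*, its partner in the first complex, had 0 and 0 against 55 and 44 counts, at least 34.3-fold higher, and *Lamtor1*, the lysosomal anchor, was higher (142 and 126 against 211 and 202 counts, 0.68 ± 0.16).

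**Figure D4:**
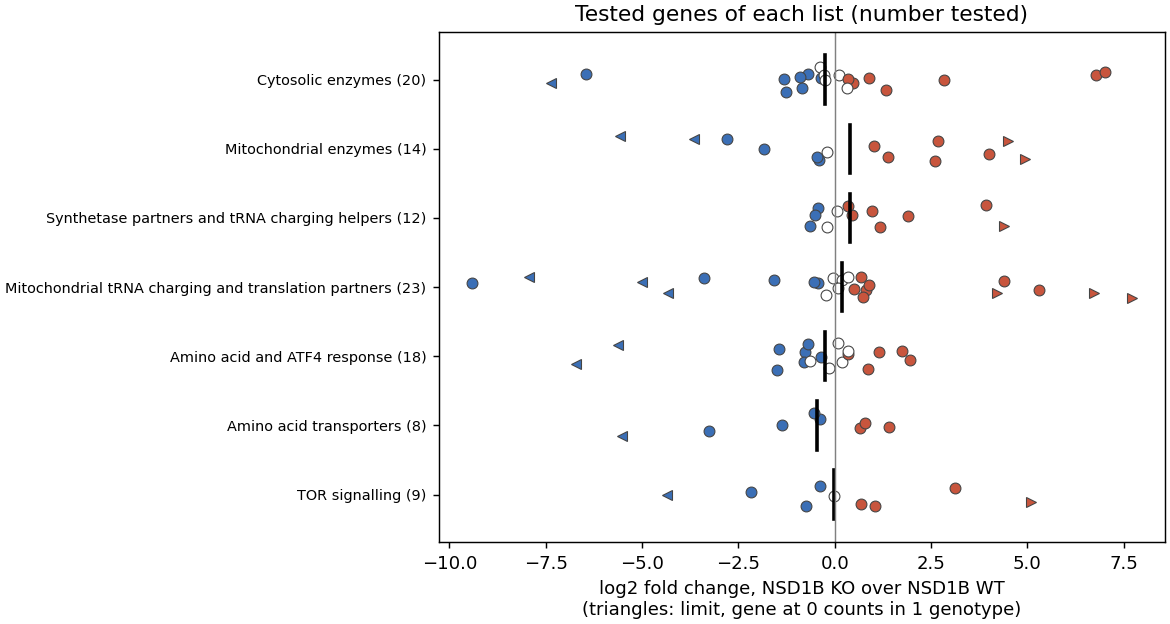
Log2 fold change, NSD1B KO over NSD1B WT, of each tested gene in the 2 groups of enzymes and the 5 lists, with the number tested in brackets; red is higher, blue is lower, white is not called, triangles are limits for genes at 0 counts in 1 genotype, genes with 1 to 3 counts in 1 genotype are drawn at their count ratio, and black bars are medians. Every list has called genes on both sides of 0, and the medians lie between -0.46 and 0.41.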

How the data were processed

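RNA of B220+ spleen B cells was sequenced in 4 libraries, 2 NSD1B WT and 2 NSD1B KO, grouped by their labels. The authors deposited counts, 1 whole number for each gene in a library and not normalized, from 150 bp paired-end reads mapped to mm10 with Bowtie2. Not given in the sources used here are the program that counted, whether it used strand, and the release of the annotation. The study also describes FPKM from Cufflinks, not used here. Rows that name no gene were left out of library sizes and tests. They held reads on no feature (44.3% to 44.6%), reads that were not unique (11.2% to 13.2%) and ambiguous reads (2.21% to 2.41%). The libraries had 6952351 and 7134170 (NSD1B WT) and 7566834 and 6769118 (NSD1B KO) counts on genes.

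Counts were scaled by TMM and compared by the edgeR 4.0.16 quasi-likelihood test in R 4.3.3 over all 11657 genes kept by filterByExpr (minimum count 10, minimum total 15), with Benjamini-Hochberg adjustment over all of them. Every adjusted p comes from this fit unless another is named. The study gives a fold change above 1.2 and p below 0.05 as its threshold, and p was taken as adjusted. A gene without counts in a genotype was set against 3 counts over the genotype (0.207 CPM in NSD1B WT, 0.215 CPM in NSD1B KO), and a gene with 1 to 3 counts was given a ratio with an exact 95% counting interval. Positions and exon lengths came from GENCODE M21, matched to 55141 of 55401 identifiers without their version numbers, and promoter windows from RefSeq (GRCm38.p6). The chi-square of the counts of the 2 libraries of a genotype, per gene with at least 20 counts, averaged 3.02 in NSD1B WT and 3.90 in NSD1B KO, above the 1 that sampling noise alone gives. The tests were checked on simulated counts. Figures were drawn with matplotlib 3.10.9.

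The synthetase genes and the lists were chosen with earlier results of these data known. The synthetase genes are named, apart from 1 that is not reported here singly. Of each list, the genes named were those called with a mean of at least 5 CPM, at most 5 by size of the change. *Aimp1*, *Eef1e1*, *Eef1a1*, *Sepsecs*, *Gatb*, *Gatc*, *Qrsl1*, *Gtpbp3*, *Tufm*, *Atf4*, *Ddit3*, *Asns*, *Eif2ak4*, *Eif4ebp1*, *Phgdh*, *Psph*, *Mthfd2*, *Slc7a5*, *Rptor*, the single marker genes and the neighbouring genes are not covered by this rule and were picked with their values in view. Alternatives comprised other scalings (DESeq2 size factors, library size alone, upper quartile), the DESeq2 1.42.0 Wald test, limma 3.58.1 voom, other filters and thresholds, each library left out, the replicate number as a block, removal of a trend with length and GC content, and immunoglobulin genes left out.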

Additional observations from a re-analysis of the deposited data

How the results depend on the processing

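No synthetase gene changed direction under any alternative in which it was tested, and 21 of 34 kept their side of the threshold under all of those. Not every gene was tested in each, with 25 tested when 1 CPM was required in all 4 libraries. The counts of 14 higher and 14 lower genes became 9 higher and 11 lower of 25 tested when 1 CPM was required in all 4 libraries, which removes genes at 0 in 1 genotype, and the mitochondrial median log2 fold change then became -0.25 from 0.41. With adjusted p below 1e-05 and a log2 change above 0.5, 11 genes were higher and 9 lower. With the trend with length and GC content removed, the cytosolic median moved from -0.26 to -0.0737 (-0.0868 with the replicate block), and the median of all genes from -0.10 to 0.02. Leaving out each library gave 14 to 15 higher and 10 to 15 lower genes, a cytosolic median of -0.387 to -0.0958 and a mitochondrial median of 0.310 to 0.499. The log2 change of the cytosolic to mitochondrial ratio, 0.54 from summed CPM, was -0.15 from the mean of log2(CPM + 1) over the genes, which weights every gene alike. The DESeq2 Wald test gave 13 higher and 10 lower genes.

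The replicate numbers were not shown to pair the libraries, since the deviations of libraries with the same number correlated by 0.0645. With 2 libraries of each genotype the deviations mirror each other, so this is 1 value and not a repeated one. With the replicate number as a block, 14 genes were higher and 13 lower, and *Farsa* was no longer called (adjusted p = 0.0653, edgeR quasi-likelihood test). With library size alone, *Aars*, *Gars*, *Iars2* and *Rars* were called as lower as well, which gave 18 lower genes. With 2 libraries of each genotype, and with erythroid, dividing and sex-linked genes moving with genotype, these values describe these libraries. At counts under 20 the fold changes rest on few reads.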
